A study of Mus musculus with 21 samples.

Results

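Alternative splice site events are places where an intron is removed with a choice of 2 start or 2 end points. Of the 46443 splicing events in the deposited table, 4941 carried an annotation beginning with alt-3 or alt-5 and are described here: 2939 alternative 3′ events, where the upstream exon joins one of 2 acceptor sites, and 2002 alternative 5′ events, where one of 2 donor sites is used. They lay in 2321 genes. Each event has a PSI (percent spliced in, deposited as a fraction from 0 to 1) in each of 21 RNA-seq libraries of mouse blood stem and progenitor cells, and is named by an examined junction and the competing junction it is set against.

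The spliceosome marks an intron by a donor at its 5′ end, usually GT in the DNA, and by an acceptor at its 3′ end, usually AG, with the branch point and a pyrimidine tract just upstream of the acceptor. U1 snRNP binds the donor, and the U2AF proteins bind the tract and the acceptor. Moving a site lengthens or shortens one exon, and the reading frame is kept when the sites lie a multiple of 3 bases apart. Adjacent AGs, called NAGNAG acceptors, are a common source of transcripts that differ by a single codon. In blood, mutations in U2af1, Sf3b1 and Zrsr2, which act near the 3′ end of the intron, and in the SR protein Srsf2 are known from myeloid disease. Retinoid X receptors (Rxra, Rxrb, Rxrg) are nuclear receptors that bind DNA as partners of retinoic acid, vitamin D, thyroid hormone, LXR and PPAR receptors.

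The study sorted long-term haematopoietic stem cells (LT-HSC), which can rebuild blood for life, and multipotent progenitors of the MPP3 and MPP4 kinds (MPP), which divide more and are primed towards myeloid and lymphoid fates. Batch 1 held 12 libraries, 3 each of LT-HSC and MPP from Rxrabfl/fl animals without Cre (floxed controls) and from Vav1Cre+Rxrabfl/fl animals (knockouts; the titles write VaviCre). Batch 2 held 9 LT-HSC libraries, 3 each from Vav1Cre+WT animals (Cre controls), Vav1Cre+Rxrabfl/fl animals (labelled knockouts) and a group titled Vav1Cre+Rxrabfl/fl Myclfl/+, whose descriptions write Myc (Myc allele group). The control genotype therefore differs between batches: floxed alleles without Cre in one, Cre without floxed alleles in the other. Vav1Cre acts in blood cells from fetal life. Bone marrow of pooled animals was the source, no age is named in the labels, and library numbers are those of the labels. LT-HSC and MPP libraries of batch 1 carry the same source codes, so each LT-HSC library has an MPP library of the same source. Whether the other numbered libraries came from separate pools is not stated, so p-values measure the spread between these libraries.

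Where both sites of a pair fell inside a RefSeq promoter window (the bases around a gene's start, GRCm38.p6), their letters could be read. Of the 32 such pairs, all 64 sites had the expected letters, 47 GT and 3 GC at donors and 14 AG at acceptors. These examples show what the choice looks like; they were taken for lying in a window, not for how they behaved, and the events named further on lay outside the windows. The capitals mark the first 2 bases of the intron at each donor and the last 2 at each acceptor. The first 3 are acceptor pairs and the other 5 donor pairs.
Zfp169, acceptors 3 bases apart, minus strand, chr13:48491385-48491404: ctctctAGcAGaacccagga
Ttc7b, acceptors 4 bases apart, minus strand, chr12:100495428-100495448: ccttctAGtcAGaattcctac
Sapcd1, acceptors 4 bases apart, minus strand, chr17:35027576-35027596: cctctaAGccAGctgcagatg
Snrpa, donors 3 bases apart, minus strand, chr7:27195983-27196002: acggctcagGTgGTgggttc
Gtf3c6, donors 3 bases apart, minus strand, chr10:40257568-40257587: ctagaggagGTtGTaagcga
Mapkapk3, donors 4 bases apart, minus strand, chr9:107289517-107289537: ccccctgctGTacGTaagtac
Lig3, donors 4 bases apart, plus strand, chr11:82781264-82781284: gccgagaagGCagGTgagggg
Apex1, donors 5 bases apart, plus strand, chr14:50925021-50925042: cgttgggagGTcagGTaccttg

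In what follows, the longer-exon form is the junction of a pair with the shorter intron. Snrpa, a protein of U1 snRNP, had a longer-exon PSI between 0.520 and 0.867 over 21 libraries, with a median of 0.678. Gtf3c6, a subunit of transcription factor IIIC, had a median of 0.280 and a range of 0.0897 to 0.635. In Lig3, a DNA ligase of base excision repair whose upstream donor is a GC, the longer-exon form (the downstream GT) had a median of 0.762 over 19 libraries. In Apex1, the main apurinic endonuclease, the downstream donor had a median of 0.0698, so the upstream GT was the main site. In the acceptor pair of Ttc7b the upstream AG gave the longer-exon form, with a median of 0.938 over 19 libraries.

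The labels were checked first. The Rxra junction that skips an exon (chr2:27741203-27748612, a cassette event) had a PSI of 0 to 0.1 in the floxed and Cre controls of both cell types and of 0.5 to 1 in the 3 batch 1 knockout libraries that had a value. It was 0, 0.0127 and 0 in the 3 batch 2 libraries labelled knockout, which therefore go against that label at this junction, and 0.647, 0 and 1 in Myc allele libraries 1, 2 and 3. Rxrb is measured at 6.40 to 18.8 TPM (a transcript abundance corrected for length and depth, whose sum over the genes in the table was 691094 to 918942 in the libraries) in all libraries, and Rxra at 1.27 to 7.46 TPM. The sort markers followed the cell labels: Flt3 lay at 67.7 to 123 TPM in MPP and 0.336 to 12.7 TPM in LT-HSC, and Slamf1 at 0.181 to 0.768 TPM in MPP and 9.32 to 39.3 TPM in LT-HSC. Of markers of other cells, the 5 neutrophil genes (S100a8, S100a9, Ngp, Ltf, Camp) summed to 33.0 to 55.1 TPM in floxed LT-HSC and 119 to 1239 TPM in knockout LT-HSC of batch 1, and to 12.5 to 36.4 TPM and 68.9 to 550.1 TPM in floxed and knockout MPP, with none at 0. They were not alone. The 10 LT-HSC markers themselves summed to 1051 to 1277 TPM in knockout and 555 to 944 TPM in floxed LT-HSC of batch 1. In LT-HSC of batch 1, the summed levels were also higher in all 3 knockout than in all 3 floxed libraries for markers of monocytes, macrophages and dendritic cells (6.16 to 29.7 against 1.76 to 4.15 TPM, with 1 of 5 genes at 0 in every floxed library), mast cells, basophils and eosinophils (17.6 to 45.2 against 3.71 to 7.15 TPM), endothelial and stromal cells (24.5 to 33.3 against 10.6 to 17.3 TPM), B cells (1.44 to 2.22 against 0.468 to 1.07 TPM) and MPP3 and MPP4 (245 to 372 against 169 to 195 TPM). In MPP the markers of megakaryocytes (47.2 to 50.3 against 20.3 to 34.0 TPM) and of endothelial and stromal cells (34.7 to 41.8 against 26.5 to 32.8 TPM) did so. Erythroid markers leaned the other way in LT-HSC of batch 1, with overlap, at 34.9 to 98.8 TPM in knockout and 77.1 to 248 TPM in floxed libraries. The part of these markers in the differences between genotypes below was not tested. In sorted bulk samples, a shift in the cells sampled and a shift of splicing within cells cannot be told apart.

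The 2 kinds of event differed in the distance between their sites. Over the 2988 pairs that shared one end, the median distance was 30 bases, with an interquartile range of 5 to 106. Among 1762 acceptor pairs the median was 18 bases, and 590 pairs (33.5%) lay exactly 3 bases apart, the NAGNAG spacing. Among 1226 donor pairs the median was 51 bases, only 20 pairs (1.63%) lay 3 apart, and the most frequent distance was 4, with 67 pairs (5.46%). The distance was a multiple of 3 in 59.0% of acceptor pairs and 41.0% of donor pairs. Without the pairs 3 bases apart those shares were 38.3% and 40.0%.

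**Figure D1:**
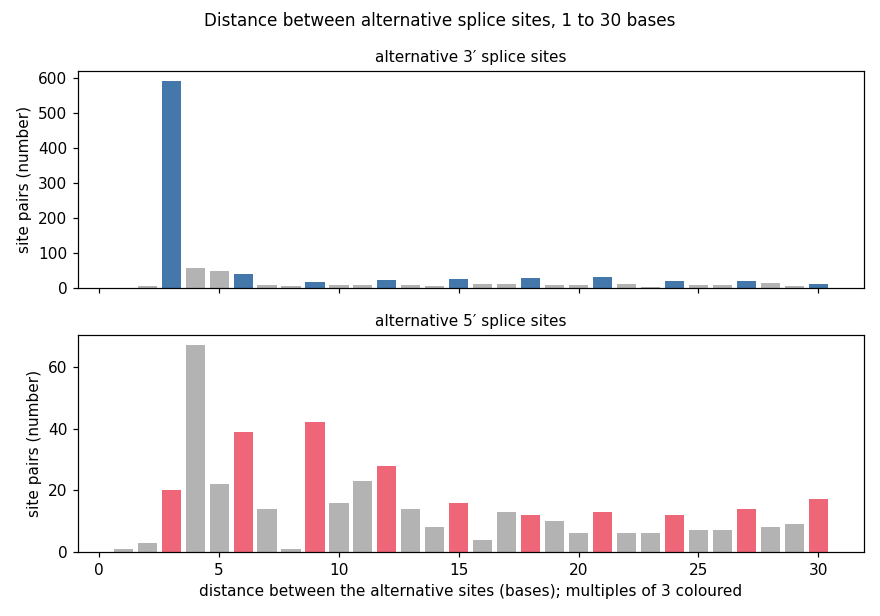
Number of site pairs (vertical axis) at each distance from 1 to 30 bases (horizontal axis) for alternative 3′ and alternative 5′ sites, multiples of 3 coloured. Acceptor pairs peak at 3 bases with 590 pairs, donor pairs at 4 bases with 67 pairs.

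Most genes (1782 of 2321, 76.8%) had a single pair of sites, and 15 genes had 5 or more. Ncor1, a corepressor that unliganded nuclear receptors recruit, headed that list with 11 pairs. Herc1 and Birc6, both very large ubiquitin ligases, had 9 and 8, and Hnrnpc, an hnRNP that binds uridine tracts, had 5.

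Which form prevailed depended on the kind of site and the distance. In acceptor pairs 3 bases apart, the median longer-exon PSI was 0.583 to 0.628 over the libraries. In acceptor pairs 4 to 12 bases apart it was 0.772 to 0.848, that is, the upstream AG was the main site of the median event. In donor pairs 3 bases apart, of which 18 had a longer-exon row, it was 0.239 to 0.415. In donor pairs 4 to 12 apart it was 0.351 to 0.482, so the median event leaned to the upstream site here too. Single events differed: at 4 to 12 bases the mean longer-exon PSI was over 0.5 in 72.8% of acceptor and 45.7% of donor rows. For pairs 61 to 300 bases apart the ranges were 0.640 to 0.724 at acceptors and 0.575 to 0.657 at donors. These values describe the events listed, since the lowest value in the column the table gives for an event's spread of PSI over libraries was 0.15, and sites used alike in every library are not in the table.

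The 2 PSI of a pair did not always add to 1. For 1860 pairs both junctions were listed, and the sum of their PSI was within 0.05 of 1 in 65.5% to 80.6% of pairs, depending on the library. The reads behind each PSI are not given, and why the remaining pairs did not add to 1 was not tested. A few events are not shifts of 1 site: 102 shared neither end, and 72 were also annotated as cassette exons.

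Replicates of a group differed by a median SD of 0.0741 in PSI over the alternative splice site events, against 0.0759 for cassette exons and 0.0947 for intron retention. The spread fell with expression of the host gene, from 0.101 for hosts at or under 10.8 TPM to 0.0556 for hosts at or over 33.3 TPM. Read counts per junction are not in the table, so the depth behind each PSI is unknown.

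The PSI values of 4 batch 2 libraries stood apart. The labelled knockout libraries 4 and 5 and the Myc allele libraries 2 and 3 had a PSI for 3694 to 4414 of the events, and 19.8% to 42.7% of their values were exactly 0 or 1. The other 17 libraries had 4665 to 4854 values with 5.23% to 11.9% at 0 or 1. Between libraries, the correlation of PSI across 2885 events was 0.930 to 0.960 within batch 1. Pairs of an LT-HSC with an MPP library, which are among these, were at 0.930 to 0.958. Pairs within a cell type were not taken apart, so the 2 kinds of pair are not compared. The correlation was 0.871 to 0.921 between batches without those 4 libraries, and 0.655 to 0.866 for the 4 with any other library.

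**Figure D2:**
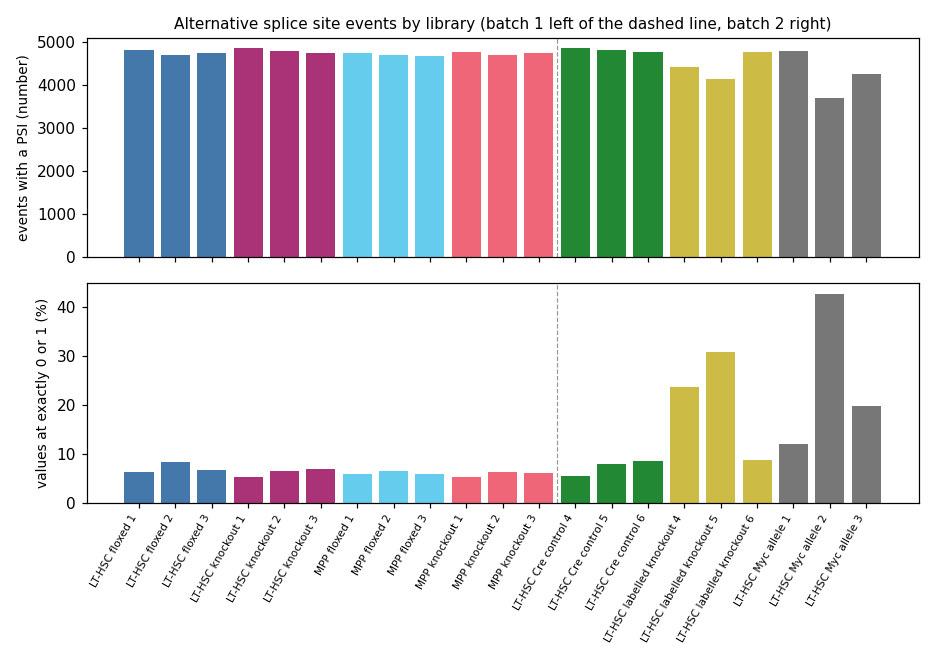
Top, number of alternative splice site events with a PSI in each library; bottom, percent of those values that are exactly 0 or 1. Labelled knockout libraries 4 and 5 and Myc allele libraries 2 and 3 hold 3694 to 4414 values with 19.8% to 42.7% at 0 or 1, the other libraries 5.23% to 11.9%.

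One set of alternative 5′ events separated the batches completely. In 27 events of 26 genes the 2 junctions were displaced by the same number of bases (1 to 9) at both ends, so the intron had the same length in either placement. In 20 of them every batch 2 value was 0 and every batch 1 value lay between 0.463 and 1. In 12 of these 20 the displacement was 4 bases. One was Xbp1, the stress-response factor whose mRNA is cut by Ire1 and not by the spliceosome: its 26-base intron (chr11:5524281-5524308) had a PSI of 0.875 to 1 in the 12 batch 1 libraries and 0 in all 9 of batch 2. Since both placements have the same length, this PSI does not measure how much Xbp1 mRNA was cut. The placement in Meis1, a stem cell homeobox factor, did not separate them, with 0.758 to 0.981 in batch 1 and 0.757 to 0.953 in batch 2. Comparisons were therefore made within a batch only.

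Differences in PSI between groups were tested with limma over all event types at once, and an event is called past the test at a Benjamini-Hochberg adjusted p under 0.05 with a mean difference of at least 0.1. Few alternative splice site events passed in any comparison. The count of each comparison, and the count at an unadjusted p under 0.05, is followed by its share of the alternative splice site events tested and the share over all event types, against which it is to be read. Of the counts with 1 library left out, those of 5 or more carry both shares where first given.

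**Figure D3:**
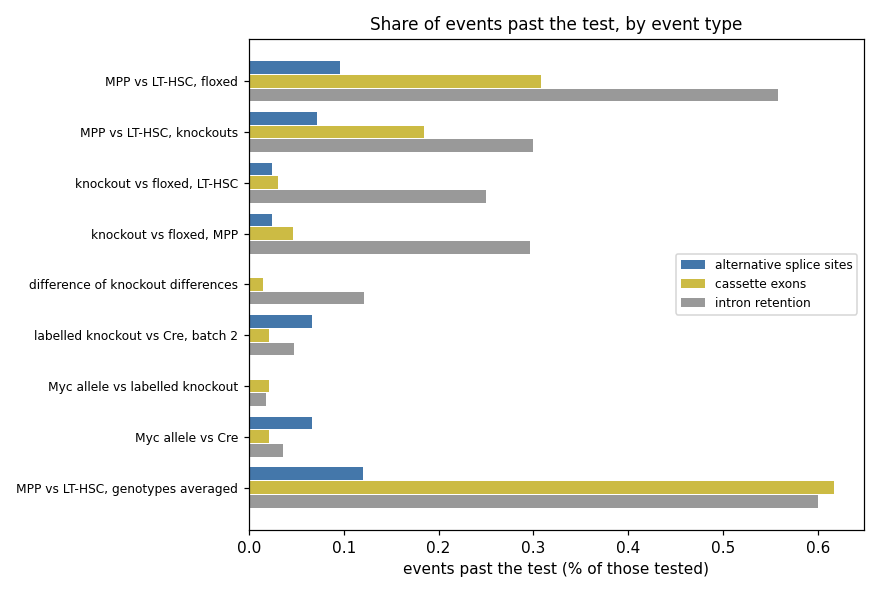
Percent of tested events past the test (horizontal axis) in each comparison, for alternative splice sites, cassette exons and intron retention. In MPP against LT-HSC of floxed controls the shares are 0.096%, 0.308% and 0.558%. Counts behind the bars are small, 0 to 5 for alternative splice sites.

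The design limits what such counts can show. The median standard error of a difference was 0.0554 in batch 1 and 0.0892 in batch 2. The 95% interval of the difference lay wholly within 0.2 of 0 for 59.4% to 61.2% of the events in the 4 batch 1 comparisons of 2 groups, and for 24.0% to 28.5% in batch 2. In simulated data, normal noise with the spread of these libraries was drawn for 39715 events of all types in batch 1 and 28309 in batch 2. In each, 100 events of intermediate mean PSI were given a difference of 0.4 and 100 others one of 0.2. Of those given 0.4, 18% were recovered in MPP against LT-HSC of floxed controls and 2% in labelled knockouts against Cre controls. Recovery after adjustment depends on how many events differ, so these shares cannot be carried over to the alternative splice site events.

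MPP were compared with LT-HSC to ask how site choice differs between the stem cell and its early progeny. In floxed controls 4 of 4166 events passed (0.096%, against 0.486% over all event types), in 3 genes, all annotated as alternative 3′ events, and 323 had an unadjusted p under 0.05 (7.75%, against 11.6%). They were both rows of Pxk, a kinase-like protein with a PX domain, and single rows of Trim39, a ubiquitin ligase, and Arhgef1, a guanine nucleotide exchange factor that acts downstream of G protein-coupled receptors. With the source number as a block, the paired fit, 0 events passed, and 0 passed on a logit scale. The count was 9 without LT-HSC floxed control 1 (0.216%, against 0.405% over all event types), 7 without LT-HSC floxed control 3 (0.168%, against 0.567%), and 1 without LT-HSC floxed control 2 or without MPP floxed control 2.

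At Pxk (chr14:8152150-8155283), 2 acceptors 3 bases apart compete. The longer-exon form was at 0.660, 0.711 and 0.793 in floxed LT-HSC and at 0.476, 0.267 and 0.292 in floxed MPP. The groups did not overlap, and the difference of -0.376 (SE 0.0607) had an adjusted p of 0.0357 by limma. Knockout MPP, at 0.545 to 0.692, overlapped knockout LT-HSC at 0.609 to 0.667. The call did not hold with the source block (adjusted p = 0.182) or on the logit scale (0.0516), and was kept in 1 of 6 fits that each left out a library.

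At Arhgef1 (chr7:24918531-24919184) the examined intron lies inside a longer junction (chr7:24918000-24919631) that spans it; the 2 share neither end, and the event is also annotated as a cassette exon. Its PSI was 0.0488, 0.0882 and 0.0227 in floxed LT-HSC and 0.360, 0.286 and 0.310 in floxed MPP, a difference of 0.266 (SE 0.0419, adjusted p = 0.0322 by limma). In the knockouts it was 0.0233 to 0.143 in LT-HSC and 0.291 to 0.404 in MPP, a difference of 0.246 that did not pass (SE 0.0419, adjusted p = 0.0584). All 6 MPP libraries lay above all 6 LT-HSC libraries of batch 1. The 7 batch 2 LT-HSC libraries with a value were all at 0. Arhgef1 mRNA was at 71.7 TPM in floxed MPP and 46.0 TPM in floxed LT-HSC (log2 change 0.63, adjusted p = 0.0332 by limma). For the floxed controls the adjusted p was 0.171 with the source block and 0.0552 on the logit scale, and no fit that left out 1 library kept the call (0.0514 to 0.0934).

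At Trim39 (chr17:36260921-36261491) the acceptors lie 24 bases apart, and the floxed LT-HSC stood alone. The shorter-exon form was at 0.417, 0.577 and 0.628 in floxed LT-HSC, and between 0.848 and 1 in all 18 other libraries, batch 2 included. The difference was 0.362 (SE 0.0546, adjusted p = 0.0261 by limma) for floxed MPP against floxed LT-HSC and 0.364 (SE 0.0546, adjusted p = 0.0461) for knockout against floxed LT-HSC. Both comparisons use the same 3 floxed LT-HSC libraries. Trim39 mRNA was at 13.4 TPM in floxed LT-HSC, 13.5 TPM in floxed MPP and 18.1 TPM in knockout LT-HSC. Neither call held with the block (adjusted p = 0.113 and 0.0721) or on the logit scale (0.0702 and 0.0825), and each was kept in 2 of 6 fits that left out a library.

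**Figure D4:**
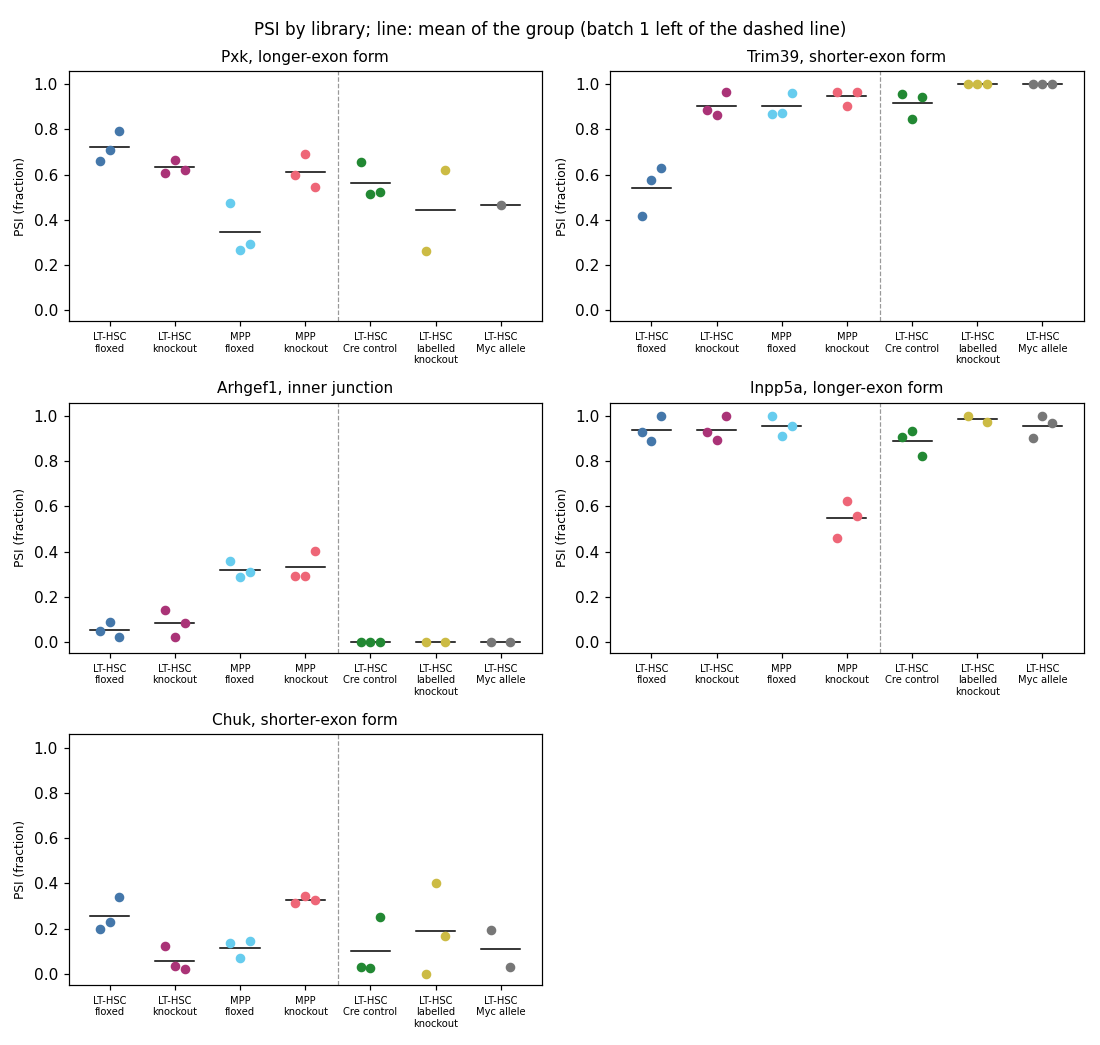
PSI in each library (points) and group mean (lines) for 5 genes with events past the test in batch 1; vertical axis, PSI as a fraction. Trim39 is low in the 3 floxed LT-HSC libraries (0.417 to 0.628) and Inpp5a in the 3 knockout MPP libraries (0.462 to 0.625), while Arhgef1 is higher in all 6 MPP than in all 6 LT-HSC libraries of batch 1.

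In the batch 1 knockouts 3 of 4166 events passed between MPP and LT-HSC (0.072%, against 0.305% over all event types), all at donors and in 3 genes, with 199 at an unadjusted p under 0.05 (4.78%, against 7.92%). Among them were Inpp5a, a phosphatase that ends inositol trisphosphate signals, and Chuk, the IKK-alpha kinase of NF-kB signalling. In the paired fit with the source block 0 passed, and 0 passed on the logit scale. The count was 5 without LT-HSC knockout 1 (0.12%, against 0.758% over all event types). It was 1 without LT-HSC knockout 2, without MPP knockout 1 or without MPP knockout 3.

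Inpp5a had donors 51 bases apart (chr7:139578269-139578354 for the longer-exon form), and here the knockout MPP stood alone. They were at 0.462, 0.625 and 0.556, and the 17 other libraries with a value were at 0.824 to 1. The difference was -0.393 (SE 0.0489, adjusted p = 0.0111 by limma) against knockout LT-HSC and -0.408 (SE 0.0489, adjusted p = 0.0136) against floxed MPP. The 2 comparisons share the knockout MPP libraries. Each call was kept in 6 of 6 fits that left out a library, with adjusted p from 0.0144 to 0.0396, but on the logit scale the values were 0.106 and 0.116 and with the block 0.179 and 0.0605. Inpp5a mRNA was low, at 6.08 TPM in knockout MPP, 6.10 TPM in floxed MPP and 8.28 TPM in knockout LT-HSC.

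Chuk had donors 17 bases apart (chr19:44075530-44077263 for the shorter-exon form). This form was at 0.121, 0.0323 and 0.0217 in knockout LT-HSC and at 0.314, 0.343 and 0.325 in knockout MPP, a difference of 0.269 (SE 0.0424, adjusted p = 0.0412 by limma). The floxed controls lay in the opposite order, 0.2, 0.227 and 0.342 in LT-HSC and 0.136, 0.0690 and 0.143 in MPP. The difference between the 2 knockout differences was 0.409 (SE 0.0600), the smallest p of that comparison among these events, and missed the threshold with an adjusted p of 0.0602. With the source block the adjusted p for the knockouts was 0.236, and on the logit scale it was 0.0581. The call was kept in 1 of 6 fits that left out a library (0.0196 to 0.122).

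The averaged comparison of MPP with LT-HSC, chosen after seeing the data, gave 5 events in 5 genes (0.12%, against 0.647% over all event types), with 326 at an unadjusted p under 0.05 (7.83%, against 11%) and 0 past the test with the source block. Among them were Arhgef1 (0.256, SE 0.0296, adjusted p = 0.00522 by limma), Inpp5a, A630001G21Rik and Lax1. Lax1, a membrane adaptor of lymphocyte signalling, had donors 6 bases apart (chr1:133689004-133689809) and a longer-exon PSI of 0.878 to 1 in the 6 LT-HSC libraries of batch 1 and 0.698 to 0.821 in the 6 MPP libraries, which did not overlap (difference -0.145, SE 0.0264, adjusted p = 0.0485). Lax1 mRNA was at 4.98 TPM in those LT-HSC and 10.2 TPM in MPP. Inpp5a and A630001G21Rik overlapped between the cell types.

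Knockouts of batch 1 were then compared with floxed controls, to ask what loss of the receptors changes. In LT-HSC of batch 1, 1 of 4166 events passed (0.024%, against 0.166% over all event types), the Trim39 acceptor described above, and 274 had an unadjusted p under 0.05 (6.58%, against 11.3%). The count was 5 without LT-HSC knockout 1 (0.12%, against 1.04% over all event types). It was 3 without LT-HSC floxed control 3, and 0 without LT-HSC floxed control 1, LT-HSC floxed control 2 or LT-HSC knockout 2. The 4 events next in order of p did not pass. At Rbm8a, the Y14 subunit of the exon junction complex, the shorter-exon form of an acceptor pair 3 bases apart was at 0.504, 0.538 and 0.520 in floxed and at 0.352, 0.325 and 0.369 in knockout LT-HSC (difference -0.172, SE 0.0269, adjusted p = 0.0549 by limma). In MPP the same form was at 0.372 to 0.447 in floxed and 0.342 to 0.390 in knockout libraries. In batch 2 it was 0.484 to 0.562 in Cre controls, 0.261 to 0.481 in labelled knockouts and 0.157 to 0.664 in the Myc allele group, and the labelled knockouts did not pass against Cre controls (-0.142, 95% interval -0.450 to 0.166, adjusted p = 1).

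At Tmem175, a lysosomal potassium and proton channel, the longer-exon form of donors 143 bases apart was at 0.0455, 0.0909 and 0.0588 in floxed and at 0.500, 0.350 and 0.419 in knockout LT-HSC (0.358, SE 0.0672, adjusted p = 0.104). On the logit scale its adjusted p was 0.0370, the only event past the test there. Stk16, a membrane-bound kinase, had 0.281 in floxed and 0.0646 in knockout LT-HSC for the shorter-exon form of donors 28 bases apart (adjusted p = 0.0997). Snapin, which binds the SNARE protein Snap25, had 0.863 and 0.979 for the longer-exon form of donors 5 bases apart (adjusted p = 0.128). Floxed and knockout MPP overlapped at all 3 events. They were at 0.235 to 0.385 and 0.222 to 0.469 for Tmem175, and 0.0909 to 0.130 and 0.0667 to 0.121 for Stk16. For Snapin they were at 0.947 to 0.976 and 0.935 to 0.9625. At each event the floxed MPP lay outside the floxed LT-HSC, on the side of the knockout LT-HSC. In batch 2 Cre controls and labelled knockouts overlapped at these 3 events, with 0 to 0.294 and 0 to 0.179 for Tmem175, 0.156 to 0.345 and 0.0323 to 0.329 for Stk16, and 0.762 to 1 and 0.819 to 1 for Snapin. The mRNAs of Stk16, Tmem175 and Snapin were higher in knockout LT-HSC, with log2 changes of 0.64, 0.53 and 0.89 (adjusted p = 0.0226, 0.0470 and 0.0153 by limma).

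In MPP 1 of 4166 events passed between knockouts and floxed controls (0.024%, against 0.199% over all event types), the Inpp5a donor, with 229 at an unadjusted p under 0.05 (5.5%, against 9.2%). The count was 5 without MPP floxed control 3 (0.12%, against 0.564% over all event types). It was 4 without MPP floxed control 1, 2 without MPP floxed control 2 and 4 without MPP knockout 2. At Ndfip2, an adaptor of Nedd4 ubiquitin ligases, acceptors 230 bases apart gave a shorter-exon PSI of 0.741, 0.750 and 0.781 in floxed and 0.424, 0.143 and 0.462 in knockout MPP, which missed the threshold (-0.414, SE 0.0721, adjusted p = 0.0713 by limma). Abca7, a lipid transporter, had 0.914 in floxed and 0.768 in knockout MPP for the longer-exon form of donors 5 bases apart (adjusted p = 0.111), and its 9 batch 2 libraries were at 0.943 to 1. Kalrn, another guanine nucleotide exchange factor, had 0.439 and 0.0603 for the shorter-exon form of acceptors 5 bases apart (adjusted p = 0.143), and Chuk followed with 0.116 and 0.327 (adjusted p = 0.116).

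Whether the knockout difference itself differed between the cell types was tested as an interaction in batch 1. No event passed by limma, on the PSI or the logit scale, against 0.0755% over all event types, and 219 of 4166 had an unadjusted p under 0.05 (5.26%, against 7.69%). The count was 1 without LT-HSC knockout 1 or MPP knockout 2 and 2 without MPP floxed control 3. After Chuk the smallest p values were for Inpp5a (-0.410, SE 0.0691, adjusted p = 0.103), Krit1 (-0.490, adjusted p = 0.224), Hook2 (0.294, adjusted p = 0.238) and Nae1 (0.320, adjusted p = 0.249). Krit1 is a junction protein of endothelial cells, Hook2 a dynein adaptor and Nae1 a subunit of the enzyme that activates Nedd8.

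In batch 2 the libraries labelled knockout, which do not show the Rxra skipping junction, were compared with Cre controls. Of 3012 events tested 2 passed (0.0664%, against 0.0389% over all event types), and 113 had an unadjusted p under 0.05 (3.75%, against 3.19%). The 2 are both rows of 1 site pair in 1 gene. The events next in order of p did not pass. Itpr1, the inositol trisphosphate receptor, had a shorter-exon PSI of 0.581 in Cre controls and 0.258 in labelled knockouts for donors 27 bases apart (adjusted p = 0.368 by limma). Brwd1, a bromodomain protein, had 0.0995 and 0.339 (adjusted p = 0.844), and Cox16 and Senp2, a respiratory assembly factor and a SUMO protease, had adjusted p of 1. With the 4 sparse libraries dropped, which leaves labelled knockout 6 and Myc allele library 1 alone in their groups and takes the spread from the 3 Cre controls only, 22 events in 17 genes passed (0.73% of those tested, against 2.20% over all event types). The count was 7 without labelled knockout 6 (0.232%, against 0.417%) and 5 without Cre control 6 (0.166%, against 0.0989%).

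The Myc allele group was compared with the labelled knockouts and with the Cre controls. The first comparison does not isolate the Myc allele. The Rxra skipping junction was at 0, 0.0127 and 0 in labelled knockouts and at 0.647, 0 and 1 in Myc allele libraries 1, 2 and 3. Differences that go with either locus cannot be told apart here. Against labelled knockouts no event passed by limma (0.0141% over all event types), 1 passed on the logit scale, and 266 of 3012 had an unadjusted p under 0.05 (8.83%, against 5.19%). Against Cre controls 2 passed (0.0664%, against 0.0318% over all event types), with 177 at an unadjusted p under 0.05 (5.88%, against 3.91%). The 2 are the rows of the same site pair that passed in labelled knockouts against Cre controls. Without Myc allele library 2, whose Rxra junction goes against its label, the counts were 0 and 2. Without Myc allele library 1 they were 23 (0.764%, against 1.36% over all event types) and 20 (0.664%, against 1.52%). Against labelled knockouts the count was 19 without labelled knockout 6 (0.631%, against 0.505%), 3 without labelled knockout 5, 2 without Myc allele library 3 and 1 without labelled knockout 4. Against Cre controls it was 4 without Cre control 6 and 1 without Cre control 5. With the sparse libraries dropped the counts were 41 and 26 (1.36% and 0.863%, against 3.61% and 2.11% over all event types). The 41 come from 1 library against 1, and the 26 from 1 against 3. The spread in both is that of the 3 Cre controls alone, so these counts compare single libraries and not groups.

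The smallest p values against labelled knockouts belonged to donors of Ergic2, Dcaf11, Zmynd8, Sin3a and Mrpl1, none past the test. Ergic2, a protein of the compartment between endoplasmic reticulum and Golgi, had donors 4 bases apart (chr6:148190885-148195195). Its longer-exon form was at 0.810, 0.814 and 0.787 in the Myc allele group, at 0.918, 0.947 and 0.977 in labelled knockouts and at 0.942 to 0.955 in Cre controls (differences -0.144 and -0.146, adjusted p = 0.157 and 0.101). Mrpl1, a mitochondrial ribosomal protein, had 0.805 in the Myc allele group, 0.981 in labelled knockouts and 0.945 in Cre controls (adjusted p = 0.277 and 0.573). Sin3a, the scaffold of a histone deacetylase complex, had 0.995 and 0.818 for its shorter-exon form in the Myc allele group and labelled knockouts (adjusted p = 0.214), and Zmynd8, a chromatin reader, had 0.827 and 0.517 (adjusted p = 0.179). Dcaf11, a substrate receptor of Cul4 ubiquitin ligases, had 0.663 and 0.976 for its longer-exon form (adjusted p = 0.179). Against Cre controls, Crispld1 and Frmd6 had shorter-exon PSI of 0.433 against 0.0585 and 0.234 against 0.713 (adjusted p = 0.211 and 0.828).

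Of the targeted genes, Myc and Rxrb had alternative splice site events, and Rxra and Mycl had none. The Myc event is a pair of acceptors 3 bases apart at the end of an intron on chromosome 15 (chr15:61985951-61987507 and chr15:61985951-61987510). The longer-exon form was the main one, at 0.722 to 0.889 in the 18 libraries outside the Myc allele group. In Myc allele libraries 1, 2 and 3 it was at 0.464, 0.707 and 0.411, below every other library. The difference was -0.300 (SE 0.0765, 95% interval -0.484 to -0.117) against labelled knockouts and -0.303 (SE 0.0765) against Cre controls, and neither passed over all events (adjusted p = 0.689 and 0.828 by limma).

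In Myc allele libraries 1 and 3 the shorter-exon form of Myc did not make up for the lower longer-exon form, and in library 2 it did. It was at 0.108, 0.293 and 0.0530 in the Myc allele group and 0.111 to 0.180 in the other batch 2 libraries. The 2 forms added to 0.572, 1 and 0.464 in Myc allele libraries 1, 2 and 3, to 0.895 in labelled knockout 4, and to between 0.990 and 1 in the remaining 17 libraries. A Myc junction annotated as a cassette exon event (chr15:61988278-61989346) followed the same split, with 0.761, 1 and 0.736 in the Myc allele group and 0.976 to 0.999 elsewhere. Myc allele libraries 1 and 3 are also those with the Rxra skipping junction, and library 2 the one without it. Myc mRNA was at 130, 86.9 and 57.6 TPM in the 3 libraries and at 102 to 158 TPM in the other batch 2 libraries. Mycl was at or under 0.69 TPM in every library. In batch 1 the Myc pair did not pass in any comparison: the longer-exon form differed by 0.0445 (95% interval -0.0169 to 0.106) between knockout and floxed LT-HSC and by 0.0325 (-0.0289 to 0.0939) in MPP.

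**Figure D5:**
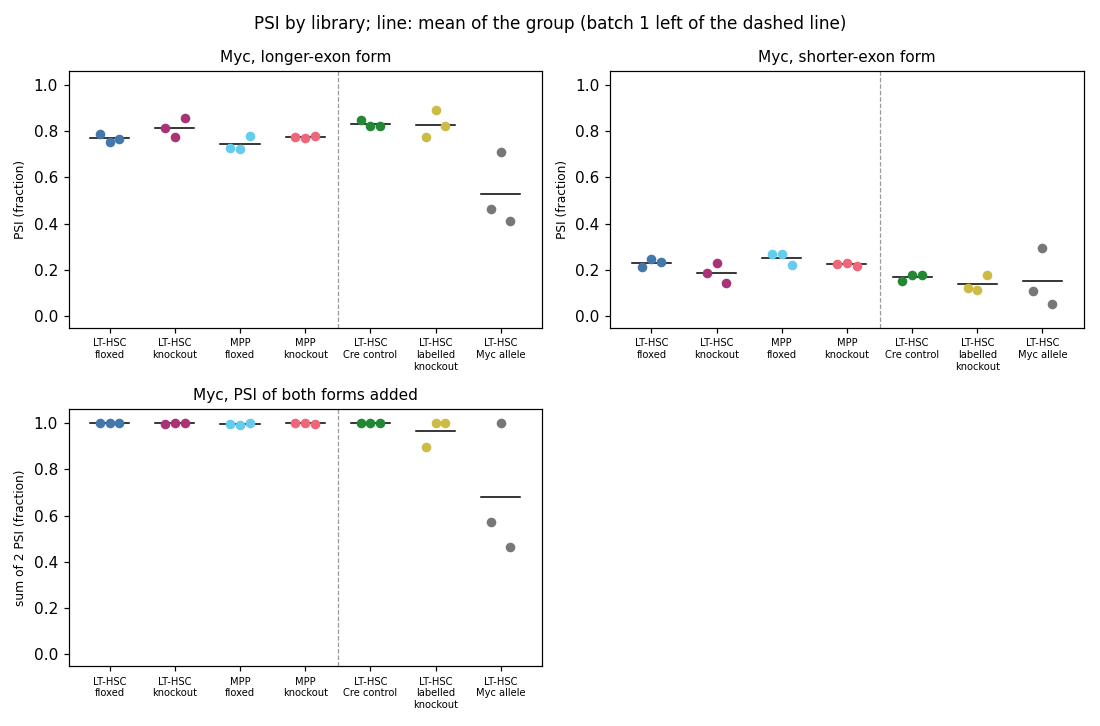
PSI by library (points) and group mean (lines) for both forms of the Myc acceptor pair and for their sum; vertical axes are fractions. The sum drops to 0.572 and 0.464 in Myc allele libraries 1 and 3 but is 1 in library 2.

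The Rxrb event is a pair of acceptors 12 bases apart (chr17:34036757-34036861 and chr17:34036757-34036873), which keeps the reading frame. The longer-exon form was at 0.475, 0.323 and 0.346 in floxed and 0.481, 0.188 and 0.526 in knockout LT-HSC, and at 0.245, 0.324 and 0.273 in floxed and 0.6, 0.212 and 0.432 in knockout MPP. The groups overlapped in LT-HSC and in MPP. The differences were 0.0172 (95% interval -0.224 to 0.258) and 0.134 (-0.107 to 0.375), and neither passed (adjusted p = 1 and 0.784 by limma). The intervals leave room for differences of 0.2 in either cell type, and batch 2 had no test because Myc allele library 2 had no value.

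Genes of 7 functional lists were counted for each comparison. The RNA splicing factor list had events in 44 of 102 genes, and none of its 111 tested events passed for MPP against LT-HSC in floxed controls, where 9 (8.11%) had an unadjusted p under 0.05 against 11.6% over all event types. The median absolute PSI difference was 0.0321, against 0.0430 over all alternative splice site events. The corresponding counts were 5 of 55 events in blood transcription factors, 4 of 60 in nuclear receptors and coregulators, 4 of 90 in chromatin regulators, 6 of 60 in receptors and signalling, 2 of 48 in cell cycle and DNA repair and 3 of 28 in ribosome and translation, with 0 past the test in each. In the other comparisons of 2 groups 1 listed event passed, 1 of 60 in receptors and signalling between MPP and LT-HSC of the knockouts, against 0.305% over all event types.

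The lists did not all stay under the share over all event types at an unadjusted p under 0.05 in those comparisons. In knockout against floxed LT-HSC, ribosome and translation genes had 7 of 28 events there (25%, against 11.3%), and the other 6 lists lay under that share. In MPP of the 2 genotypes receptors and signalling had 8 of 60 (13.3%, against 9.2%). Between MPP and LT-HSC of the knockouts that list had 6 of 60 (10%, against 7.92%), beside 3 of 28 (10.7%) in ribosome and translation. Over all alternative splice site events these 2 comparisons had 5.5% and 4.78%. Nuclear receptors and coregulators (6.67% in each), and in MPP ribosome and translation (7.14%), lay between the 2 kinds of share. In labelled knockouts against Cre controls ribosome and translation had 4 of 24 (16.7%). Nuclear receptors and coregulators had 2 of 50 (4.0%) and chromatin regulators 3 of 79 (3.8%). The shares there were 3.19% over all event types and 3.75% over all alternative splice site events. For the Myc allele group against labelled knockouts, chromatin regulators had 15 of 79 (19.0%), nuclear receptors and coregulators 8 of 50 (16.0%), splicing factors 10 of 100 (10%), blood transcription factors 4 of 42 (9.52%) and ribosome and translation 2 of 24 (8.33%), against 5.19% over all event types and 8.83% over all alternative splice site events. Against Cre controls cell cycle and DNA repair had 3 of 36 (8.33%) and blood transcription factors 3 of 42 (7.14%). Splicing factors had 7 of 100 (7.0%) and ribosome and translation 1 of 24 (4.17%). The shares were 3.91% over all event types and 5.88% over all alternative splice site events. Several events of a list lie in the same gene or are both rows of a pair (64 events in 14 genes for nuclear receptors and coregulators), so they are not independent.

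The listed events with the smallest p in floxed MPP against LT-HSC are given as examples, chosen after their values were seen, and none passed. Prpf39, a U1 snRNP-associated factor, had a longer-exon PSI of 0.403, 0.506 and 0.425 in floxed LT-HSC and 0.318, 0.365 and 0.240 in floxed MPP for acceptors 204 bases apart (-0.137, SE 0.0376, adjusted p = 0.197 by limma). Ikzf2, the Helios zinc finger factor, had 0.123, 0.186 and 0.155 against 0.0336, 0.0549 and 0.0909 for an acceptor pair 3 bases apart (adjusted p = 0.219). Hdac9, a class IIa histone deacetylase, had 0.860, 0.886 and 0.927 against 0.4, 0.290 and 0.789 for acceptors 9 bases apart, with 1 MPP library near the LT-HSC level (-0.398, SE 0.117, adjusted p = 0.227). Rb1, the retinoblastoma pocket protein, had 0.792 to 0.880 against 0.912 to 0.976 for donors 85 bases apart (adjusted p = 0.313). Eif5, the GTPase-activating translation initiation factor, had 0.871 to 0.892 against 0.756 to 0.834 for acceptors 329 bases apart (adjusted p = 0.313). Ncor1 had a difference of -0.0955 (SE 0.0313, adjusted p = 0.284) for the shorter-exon form of an acceptor pair 3 bases apart.

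The balance of longer and shorter exons was compared as the median longer-exon PSI of a library, over the events with a value in all libraries compared. With 3 libraries against 3 the exact two-sided permutation test cannot go below p = 0.1, so no difference could pass, and 7 comparisons were made. The median was 0.613 to 0.632 in floxed LT-HSC and 0.607 to 0.623 in floxed MPP (exact permutation p = 0.4). It was 0.610 to 0.625 in LT-HSC and 0.612 to 0.626 in MPP of the knockouts (exact permutation p = 0.5). It was 0.615 to 0.628 in floxed and 0.610 to 0.625 in knockout LT-HSC (exact permutation p = 0.2), and 0.605 to 0.615 in floxed and 0.609 to 0.627 in knockout MPP (exact permutation p = 0.6).

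In batch 2 all 3 Cre controls, at 0.630 to 0.638, lay above all 3 labelled knockouts at 0.607 to 0.624 (difference -0.0188, exact permutation p = 0.1, adjusted 0.7 over the 7 comparisons). With every event that had a value in a library that difference was -7.4e-05 (exact permutation p = 1). The Myc allele libraries were spread wider, at 0.571 to 0.645, with a difference in means of -0.0108 from labelled knockouts (exact permutation p = 0.7). From Cre controls the difference was -0.0276 (exact permutation p = 0.3).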

How the data were processed

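The authors deposited PSI as a fraction per splicing event and library, with event types and mm10 coordinates (the exon bases flanking each intron), and TPM per gene. STAR 2.6 and kallisto were used, per the submitters' processing notes; RNA (5 ng) was amplified without strand marking stated, per the labels' protocols. No source used here names the event caller, its read minimum or read counts, so depth is unknown and PSI carries no counting error.

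Fits used limma 3.58.1 (R 4.3.3) on PSI over all event types with a value in every library of the fit, 1 mean per group, separately for 12 batch 1 and 9 batch 2 libraries, with Benjamini-Hochberg adjustment over all events tested. Host genes were fitted with limma on log2(TPM + 1) with a mean-variance trend, for genes at 1 TPM or more in 3 libraries. The fits were tested on simulated data with known differences. Single values were compared with exact permutation tests in scipy 1.17.1.

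Events and gene lists were chosen with earlier results of these data known. Named genes are those past the test without overlap between groups, up to 12 per kind of site for MPP against LT-HSC in floxed controls and up to 8 otherwise, 1 event per gene; where fewer than 3 passed in the other comparisons, the 5 smallest p; and any event of Rxra, Rxrb, Myc or Mycl. LT-HSC and MPP of a genotype share source codes, so the block on source is given beside those counts. Deviations of same-source libraries correlated at -0.0134, 0.00813 and -0.0352 in floxed controls and 0.205, 0.0447 and 0.0929 in knockouts. Alternatives were a logit scale, missing values allowed, a host gene minimum of 10 TPM, each library left out, the replicate block, genotypes averaged and sparse libraries dropped (under 4500 values); the last 2 were chosen after seeing the data. Results for a few named genes are not reported here, although the counts include them.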

Additional observations from a re-analysis of the deposited data

How the results depend on the processing

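Counts of alternative splice site events past the test are small, and most moved with the setting. For MPP against LT-HSC in floxed controls the count of 4 became 0 with the replicate block, 0 on the logit scale and 2 with hosts of at least 10 TPM, and ran from 1 to 9 over the fits leaving out 1 library. In knockouts the count of 3 became 0 with the block and 0 on the logit scale, and ran from 1 to 5. For knockout against floxed LT-HSC and MPP the count of 1 became 0 with the block in each. On the logit scale the LT-HSC count stayed 1 with Tmem175 in place of Trim39. In MPP it became 0 on the logit scale and with hosts of at least 10 TPM. Leaving out 1 library gave 0 to 5 in LT-HSC and 1 to 5 in MPP, and 0 to 2 for the interaction. For labelled knockouts against Cre controls the count of 2 became 1 with the block and 22 without the sparse libraries, and ran from 2 to 7. Against labelled knockouts, the Myc allele group gave 1 on the logit scale, 41 without the sparse libraries and 0 to 23 over libraries left out. Against Cre controls it gave 26 without the sparse libraries and 1 to 20. Without the sparse libraries, labelled knockout 6 and Myc allele library 1 stand alone and the spread is that of the Cre controls. The cause was not tested. Same-numbered libraries of the 2 genotypes share only a number, with correlations of deviations from -0.0408 to 0.0436 in batch 1 and from -0.0432 to -0.0158 in batch 2, and not every library correlated best with its own number. No block was fitted for the Myc allele group, which shares no numbers with the other groups, or for the interaction. For the named events and library medians, no alternative reversed a direction that passed the test. Of their values 570 stayed, 45 lost the threshold, 26 gained it and 24 moved. For named events, to stay meant keeping to the same side of the threshold. For the medians, where no test could pass, it meant a change smaller than the spread between replicates. Missing values allowed gave counts of 4, 3, 1, 1, 0, 2, 0 and 3 in the 8 planned comparisons.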

Other observations

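LT-HSC of the 2 batches were set side by side without a test. Vav1Cre+Rxrabfl/fl libraries are in both batches, while the controls differ in genotype. Over 4225 alternative splice site events with values in 6 LT-HSC libraries of batch 1 and 5 of batch 2 (the sparse libraries left out), 237 (5.61%) did not overlap between the batches, and 99 of these (2.34% of all) differed by at least 0.2. Over all event types the shares were 9.74% and 4.66% of 39412 events. For cassette exons the share without overlap was 6.57% of 6549 events and 2.92% differed by at least 0.2, and for intron retention the shares were 9.14% and 3.76% of 23480. There were 32 events in 29 genes (0.757%, against 0.919% over all event types) that did not overlap and differed by at least 0.5. The most extreme were the alternative 5′ pairs of equal intron length described above. In 20 of them the 3 groups of batch 2 were all at 0 and both genotypes of batch 1 at 0.463 or more. The cause was not tested. Control genotype differs between the batches, and the batch 2 libraries labelled knockout go against that label at the Rxra skipping junction. Diap3, a formin, had 1 in every batch 1 library and 0 in every batch 2 library. Kdm5b, a histone H3 demethylase, had 0.983 to 0.993 in batch 1 and 0 in batch 2, and Gfm1, a mitochondrial elongation factor, 0.976 to 1 and 0. Lcp2, the SLP-76 adaptor, whose event is also annotated as a cassette exon, had 1 in batch 1 and 0.0292 to 0.0578 in batch 2. MPP of batch 1 lay with the LT-HSC of their batch in these genes, at 0.987 to 1 in Kdm5b and 0.994 to 1 in Lcp2.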
